A study of Homo sapiens with 51 samples.

Results

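The human HOX cluster genes were followed through 51 RNA libraries of a mammary epithelial line and its TWIST1 derivative. Members were the rows of the deposited log2 RPKM table whose symbol is HOXA, HOXB, HOXC or HOXD followed by a number, which gave 29 of 24033 listed genes. HOXA had 9 members, among them HOXA2 to HOXA7, HOXA10 and HOXA13, HOXB had 9 (HOXB2 to HOXB9 and HOXB13), HOXC had 8 (HOXC4, HOXC5, HOXC6, HOXC8, HOXC9, HOXC10, HOXC11 and HOXC13) and HOXD had 3 (HOXD1, HOXD3 and HOXD8). HOX genes without a row in the table were not analysed here.

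HMLE is an immortalised human mammary epithelial line, labelled wild type, and HMLE-TWIST1 is the same line overexpressing TWIST1, a basic helix-loop-helix factor that turns epithelial cells into mesenchymal ones. The promoter of the introduced TWIST1 and whether the line is a single clone are not given in the sources used here. All cells grew in a mixture of mammary epithelial medium and DMEM/F12 with serum. In the day 2 drug groups, HMLE and HMLE-TWIST1 received DMSO for 48 h, and HMLE-TWIST1 also received chaetocin at 100, 150, 200 or 500 nM for 48 h. Chaetocin, a fungal metabolite, is used to inhibit SUV39H1 and SUV39H2, enzymes that methylate lysine 9 of histone H3. In the day 4 drug groups, both lines had 15 h of DMSO, or HMLE-TWIST1 had 15 h of 80 nM chaetocin, followed by washing and 48 h of fresh medium, which is called the washout below. In the duplex groups, both lines were transfected for 48 h with Dicer-substrate RNA against SUV39H1 and SUV39H2 (knockdown) or with a scrambled sequence (scramble), and were taken at day 2 or after another 48 h in fresh medium at day 4. Each of the 17 groups had 3 libraries, 18 libraries being HMLE and 33 HMLE-TWIST1. The labels do not say that the 3 were separate cultures, so p-values measure the spread between these libraries, which may be technical.

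HOX genes encode homeodomain transcription factors that give cells their position along the body axis. They lie in 4 clusters, in which genes of low number sit at the 3′ end and are switched on early and in anterior tissue, and genes of high number sit at the 5′ end and act in posterior tissue. Adult cells keep much of the HOX pattern of their origin, held in place by Polycomb and Trithorax group proteins on the clusters. The proteins bind DNA together with PBX, MEIS and PKNOX cofactors, and several clusters also give rise to long noncoding RNAs such as HOTAIR and HOTAIRM1.

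Promoter windows of 300 bases, from 250 before to 50 after a gene's start, were taken from RefSeq on GRCh38.p14, since the expression files themselves were made on GRCh37 (hg19) and carry no coordinates. They were found for 12 of the 29 members, in 18 distinct windows. Those printed belong to some of the members that differ between the lines or under chaetocin, and not to all of the most different ones. The letters CANNTG, the E-box core bound by TWIST1 and other basic helix-loop-helix factors, read the same on both strands and are in capitals. HOXD1 and HOXA7 were near or at 0 reads in HMLE and detected in HMLE-TWIST1, HOXA2 fell under chaetocin, and HOXC4 and HOXC5 share 1 start and both fell after the washout.
HOXD1 at chr2:176188418-176188717, plus strand: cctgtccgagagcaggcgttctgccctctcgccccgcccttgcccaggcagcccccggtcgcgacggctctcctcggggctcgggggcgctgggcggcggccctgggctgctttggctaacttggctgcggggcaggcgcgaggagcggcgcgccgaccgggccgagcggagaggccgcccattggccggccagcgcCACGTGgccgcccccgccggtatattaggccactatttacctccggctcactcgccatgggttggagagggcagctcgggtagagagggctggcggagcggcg
HOXA7 at chr7:27156626-27156925, minus strand: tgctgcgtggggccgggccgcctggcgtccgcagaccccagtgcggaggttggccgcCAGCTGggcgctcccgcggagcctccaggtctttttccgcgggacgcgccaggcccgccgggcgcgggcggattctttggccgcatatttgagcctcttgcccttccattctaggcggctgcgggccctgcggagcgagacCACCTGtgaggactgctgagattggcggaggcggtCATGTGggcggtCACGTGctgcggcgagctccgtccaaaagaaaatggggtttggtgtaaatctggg
HOXA2 at chr7:27102634-27102933, minus strand: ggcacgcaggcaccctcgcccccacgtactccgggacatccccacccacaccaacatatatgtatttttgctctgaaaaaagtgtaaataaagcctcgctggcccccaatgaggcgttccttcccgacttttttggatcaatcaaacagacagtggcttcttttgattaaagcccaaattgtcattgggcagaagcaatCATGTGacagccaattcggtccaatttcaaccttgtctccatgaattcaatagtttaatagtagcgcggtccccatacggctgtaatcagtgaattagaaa
HOXC4 and HOXC5 at chr12:54016638-54016937, plus strand: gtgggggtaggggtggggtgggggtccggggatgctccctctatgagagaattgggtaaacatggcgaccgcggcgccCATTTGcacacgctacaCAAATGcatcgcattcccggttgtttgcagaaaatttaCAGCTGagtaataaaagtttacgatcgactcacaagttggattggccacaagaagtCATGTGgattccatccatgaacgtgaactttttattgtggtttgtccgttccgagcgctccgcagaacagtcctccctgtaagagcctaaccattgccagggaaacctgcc
These windows hold 1, 4, 1 and 4 matches, 36, 31, 11 and 15 CpG dinucleotides, and 74.3, 68.0, 46.3 and 51.7 percent G and C. Over the 35116 promoters of the table the median was 14 CpG and 58.7 percent G and C, and 68.7% held CANNTG, compared with 12 of the 18 member windows. The windows of HOXA13 and HOXA10, which were also higher in HMLE-TWIST1, are not printed and hold 0 matches. A match is a description of the letters only.

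Levels are given as RPKM, the reads of a gene divided by its length and by the scaled library size, so that genes of different length can be compared. By the mean of the group means, the highest members were HOXB7 (9.25 RPKM), HOXC8 (8.69), HOXC13 (7.44), HOXC6 (7.15), HOXA5 (5.61), HOXC9 (4.44) and HOXA2 (3.75). HOXB2, HOXB9, HOXA3, HOXB3 and HOXB6 followed between 2.59 and 1.60 RPKM. HOXC10, HOXA4, HOXA6, HOXB5, HOXC5, HOXD1, HOXA7, HOXB4 and HOXC4 lay between 0.999 and 0.316 RPKM. HOXA13, HOXC11, HOXB13, HOXD3, HOXB8, HOXD8 and HOXA10 lay between 0.227 and 0.123 RPKM. Members of HOXA, HOXB and HOXC are among the higher genes, and those of HOXD all had means under 1 RPKM. HOX genes took 1359 to 3060 reads of 7897045 to 15662385 in a library and the lowest members rest on few reads. HOXD8 was listed only with the 100 to 500 nM libraries, at group means of 0.0695 to 0.217 RPKM. HOXB8 was listed in the other libraries alone, at group means of 0.0508 to 0.388 RPKM, and neither was tested between the lines.

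**Figure D1:**
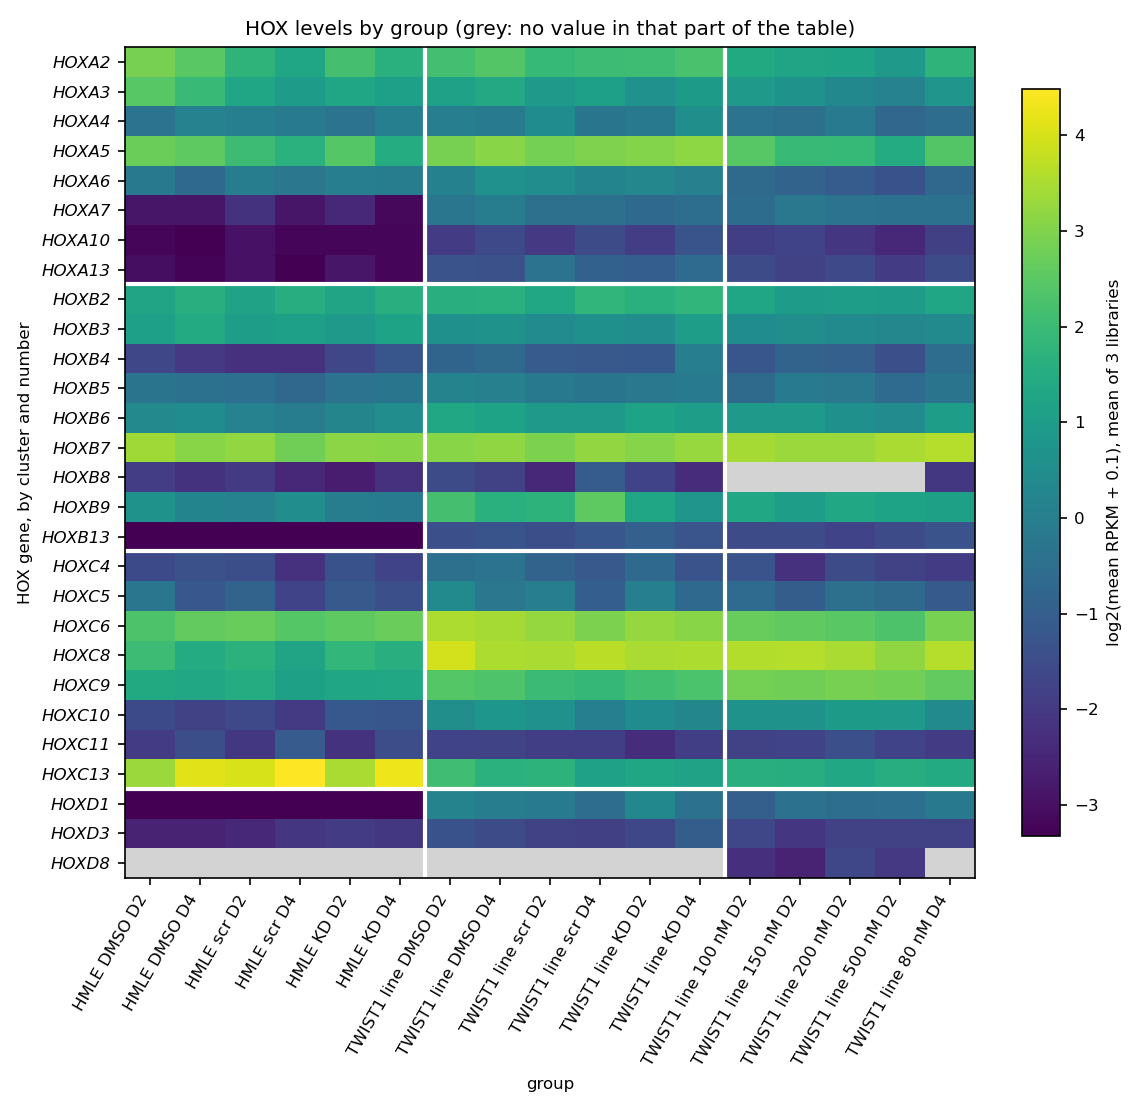
Mean level of the members described (rows, by cluster and number) in the 17 groups (columns), as log2 of the mean RPKM of 3 libraries plus 0.1, with grey for no value. HOXB7, HOXC6 and HOXC8 were bright in every group, HOXC13 was brightest in HMLE, and HOXD1, HOXB13, HOXA7, HOXA10 and HOXA13 were dark in HMLE and visible in HMLE-TWIST1.

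TWIST1 itself had group means of 2.51 to 6.90 RPKM in HMLE and 115.4 to 299.9 RPKM in HMLE-TWIST1. The epithelial cadherin CDH1 was at 87.6 ± 8.18 RPKM in HMLE with DMSO at day 2 and 0.0136 RPKM in HMLE-TWIST1, and the mesenchymal filament gene VIM went from 2.64 ± 0.96 to 493.5 ± 36.5 RPKM (SD, n = 3). SUV39H1 was lower after knockdown than after scramble in both lines, by log2 values of -1.28 and -1.40 at day 2 and -0.90 and -1.03 at day 4 in HMLE and HMLE-TWIST1, and SUV39H2 by -0.39, -1.21, -0.50 and -0.81, all past the threshold. In bulk RNA, fewer cells expressing a gene and less RNA per cell cannot be told apart. Changes are log2 fold changes from limma, with a prior count of 2 reads added, which understates the change of low genes. Calls used Benjamini-Hochberg adjusted p over all genes with a threshold of 0.05.

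Most HOX genes differed between the lines. In DMSO at day 2, 13 of 25 tested members were higher and 5 lower in HMLE-TWIST1 (median log2 difference 0.96), where 47.4% of all 18801 genes passed, 24.1% higher and 23.2% lower. In DMSO at day 4, 17 of 26 were higher and 4 lower (median 0.96; 66.9% of all genes, 33.5% higher and 33.4% lower). In scramble cells, 14 of 25 were higher and 4 lower at day 2 (median 0.68; 69.0% of all genes, 35.7% and 33.3%) and 17 of 27 higher and 4 lower at day 4 (median 0.79; 74.4% of all genes, 37.6% and 36.8%). Members were called at a share above that of all genes in DMSO and close to it in scramble cells, and more of the calls were higher than lower, though the difference from all genes was not tested. The median over all genes lay close to 0 in each comparison. With libraries scaled by total reads the split at day 4 in scramble cells was 21 higher and 2 lower, beside a shift of 0.35 in the median of all genes. These 4 comparisons use separate libraries but set the same 2 lines against each other, so a lasting difference between the lines recurs in them. In all 4, 11 members were higher (HOXA7, HOXA13, HOXB4, HOXB6, HOXB9, HOXB13, HOXC6, HOXC8, HOXC9, HOXC10 and HOXD1). Another 3 were lower in all 4, among them HOXB3 and HOXC13. The share of all genes with the same call in all 4 was not counted. HOXA2 passed in both directions. HOXA7, HOXA10, HOXA13, HOXB13 and HOXD1 had 29, 8, 18, 0 and 0 reads over all HMLE libraries. They had enough reads to be tested only through HMLE-TWIST1, so they could be called higher or not at all. Their calls are part of the counts of higher members. The libraries of the lines did not overlap for 19 of 25, 21 of 26, 21 of 25 and 21 of 27 members, and for 62.6, 70.6, 73.6 and 76.0% of all genes.

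**Figure D2:**
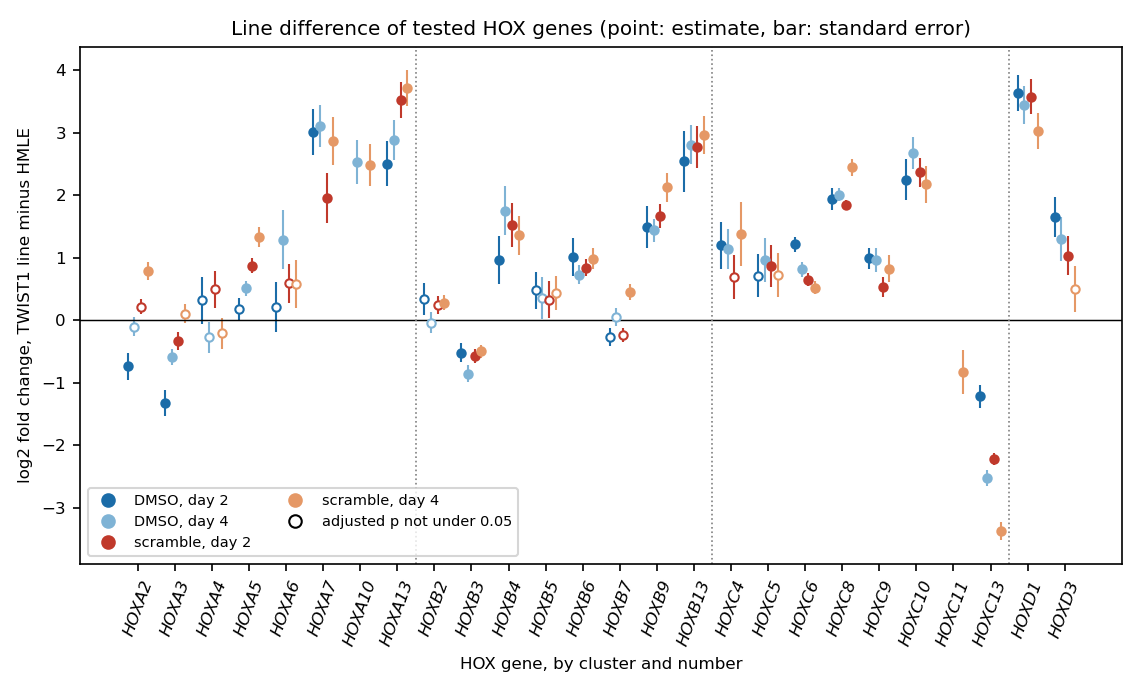
Log2 fold change of tested members between HMLE-TWIST1 and HMLE (bars are the standard error) in DMSO and scramble cells at day 2 and day 4, with open symbols where the adjusted p was not under 0.05. HOXC13 and HOXB3 lie to the negative side in all 4 comparisons, and HOXD1, HOXA7, HOXA13 and HOXB13 have the highest positive values.

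HOXC13, a regulator of hair keratin genes, was the HOX gene most strongly lower in HMLE-TWIST1 in every line comparison except DMSO at day 2. In DMSO at day 2 it stood at 11.1, 10.8 and 7.53 RPKM in HMLE and at 4.12, 4.04 and 4.28 in HMLE-TWIST1 (log2 -1.22, SE 0.186, limma adjusted p 2.84e-05). In scramble cells at day 4 it stood at 22.6, 22.0 and 22.2 RPKM in HMLE and at 1.73, 2.27 and 2.32 in HMLE-TWIST1 (log2 -3.38, SE 0.146, adjusted p 4.13e-13). Every HMLE library was above every HMLE-TWIST1 library in both. In DMSO at day 4 the difference was -2.53 (SE 0.131) and in scramble cells at day 2 -2.23 (SE 0.098). HOXC13-AS, the antisense RNA beside it, had differences of -1.48, -2.27, -2.48 and -3.62 in the same 4 comparisons. The 2 genes share 7.1 percent of the exonic bases of HOXC13 on opposite strands, and whether the counting used strand is not given in the sources used here.

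HOXC8 went the other way. This gene of the trunk had 4.10, 4.36 and 3.37 RPKM in HMLE with DMSO at day 2 and 16.0, 14.6 and 15.5 in HMLE-TWIST1. Scramble cells at day 2 had 3.00, 3.11 and 3.27 in HMLE and 10.8, 11.8 and 10.6 in HMLE-TWIST1 (log2 1.85, SE 0.078, limma adjusted p 3.34e-13). The groups did not overlap in any of the 4 comparisons, and HOXC8 rose by 1.94, 2.01, 1.85 and 2.45 in DMSO at day 2 and day 4 and scramble at day 2 and day 4. HOXC8 shares no exonic bases with another annotated gene.

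**Figure D3:**
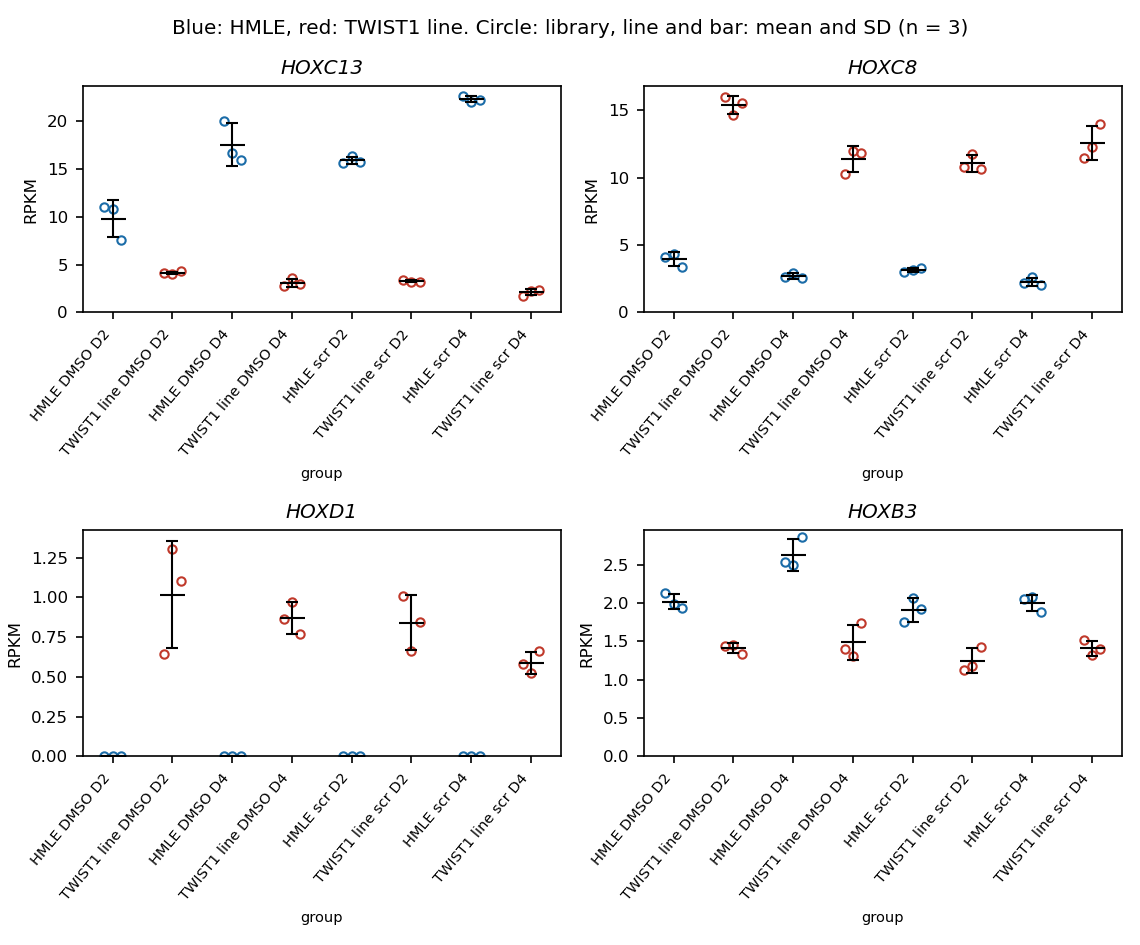
RPKM of HOXC13, HOXC8, HOXD1 and HOXB3 in each control library of both lines (circles), with the mean and SD of 3. HMLE libraries lie above HMLE-TWIST1 libraries for HOXC13 and HOXB3 and below them for HOXC8 and HOXD1.

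The rest of HOXC was mostly higher in HMLE-TWIST1. HOXC10, a gene of the lumbar region, had 0.282, 0.118 and 0.313 RPKM in HMLE and 1.29, 1.39 and 1.39 in HMLE-TWIST1 with DMSO at day 2, and its log2 differences were 2.25, 2.68, 2.37 and 2.17, each past the threshold. HOXC6, which is expressed in mammary tissue, had 5.39, 4.93 and 4.20 RPKM in HMLE and 11.8, 11.6 and 10.6 in HMLE-TWIST1, and its differences were 1.21, 0.81, 0.65 and 0.52. HOXC9 had differences of 0.99, 0.96, 0.54 and 0.83, but the call in scramble cells at day 2 was lost without the second HMLE-TWIST1 library (0.40, adjusted p 0.0579). HOXC4 passed in 3 of the 4 and HOXC5 in 2, both upward. HOXC4 lost its call in DMSO at day 2 without the first (adjusted p 0.0656) or the third (0.0723) HMLE library. Each HOXC5 call, and the HOXC4 call in scramble cells at day 4, was lost without any 1 of 3 or 4 libraries (adjusted p 0.0509 to 0.128). HOXC11 passed once, downward, in scramble cells at day 4, and lost that call without any 1 of 5 libraries (0.0546 to 0.197). Of the exonic bases of HOXC5, 43.4 percent are shared on the same strand with HOXC4, HOXC6 and a further annotated gene. HOXC4 and HOXC6 share 17.8 and 15.7 percent on the same strand, with each other and HOXC5 among their partners. The reads of HOXC4, HOXC5 and HOXC6 are therefore uncertain, here and under chaetocin.

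In HOXA, HOXA3 was lower in HMLE-TWIST1 in 3 of the 4 comparisons, with 4.94, 5.92 and 5.14 RPKM against 2.26, 2.29 and 1.85 in DMSO at day 2 (-1.32, SE 0.209, adjusted p 4.06e-05). In scramble cells at day 2 its call was lost under total-read scaling or without the first or the third HMLE-TWIST1 library or the third HMLE library (adjusted p 0.0868 to 0.14 without a library, 0.0117 to 0.171 over the alternatives), and at day 4 its difference was 0.10. HOXA2, which patterns the hindbrain, was lower in DMSO at day 2 at -0.74, with 5.63, 7.55 and 8.72 RPKM in HMLE against 4.67, 4.12 and 4.19. It was higher in scramble cells at day 4 at 0.79, with 2.25, 2.20 and 2.40 RPKM in HMLE against 4.54, 3.89 and 3.64 in HMLE-TWIST1. Control libraries of HMLE thus ran from 2.20 to 8.72 RPKM of HOXA2 and those of HMLE-TWIST1 from 3.40 to 5.44 RPKM.

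HOXA5, a gene with roles in lung and breast epithelium, did not pass in DMSO at day 2 (0.18) and was higher in HMLE-TWIST1 in the other comparisons, by 0.51, 0.87 and 1.33. Scramble HMLE at day 4 had 2.62, 2.71 and 3.89 RPKM and HMLE-TWIST1 7.996, 7.67 and 7.54, without overlap. HOXA7, HOXA10 and HOXA13 were almost unread in HMLE. HOXA7 had 0, 4 and 0 reads in HMLE with DMSO at day 2 and 16, 23 and 26 in HMLE-TWIST1, and over all libraries 29 reads in HMLE and 636 in HMLE-TWIST1. HOXA13, a gene of limb and urogenital ends, had 18 reads in all HMLE libraries and 667 in HMLE-TWIST1, and scramble cells at day 4 had 0, 0 and 0 against 23, 28 and 30 reads, an RPKM at least 20.7-fold higher with a floor of 3 reads over the HMLE group. HOXA10 had 8 reads in HMLE and 277 in HMLE-TWIST1, and in DMSO at day 4 it was at least 8.19-fold higher by the same floor. Of the exonic bases of HOXA7, 62.5 percent overlap the opposite strand of HOXA-AS3, and 16.4 percent of those of HOXA10 overlap an opposite-strand gene, so part of these reads may belong to the partner. HOXA6 passed in DMSO at day 4 alone (1.29), a call lost without any 1 of 4 libraries (adjusted p 0.0504 to 0.132), and HOXA4 in no line comparison.

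In HOXB, 4 genes were higher in HMLE-TWIST1 in all 4 comparisons and 1 was lower. HOXB7 was the highest HOX gene by the mean of the group means, though not in every group. With DMSO at day 2 it had 9.05, 10.98 and 10.5 RPKM in HMLE and 7.27, 9.76 and 8.59 in HMLE-TWIST1, which overlapped (log2 -0.27). It passed in scramble cells at day 4 alone (0.45), where HMLE had 7.07, 6.62 and 6.67 and HMLE-TWIST1 9.90, 8.72 and 9.30. HOXB9, a trunk gene also studied in breast cancer, had 1.43, 1.22 and 1.86 RPKM against 3.19, 4.62 and 5.54 in DMSO at day 2, and 0.878, 1.71 and 1.33 against 5.70, 5.91 and 5.56 in scramble cells at day 4 (2.13, SE 0.228, limma adjusted p 1.4e-07). Its groups never overlapped, and its other differences were 1.50, 1.44 and 1.67. HOXB13, known from prostate and tail development, had 0 reads in all 18 HMLE libraries and 398 in the 33 of HMLE-TWIST1. With DMSO at day 2 the HMLE-TWIST1 libraries had 4, 12 and 20 reads, and RPKM was at least 12.8, 10.2, 10.7 and 12-fold higher in the 4 comparisons.

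HOXB3 was lower in HMLE-TWIST1, with 2.53, 2.50 and 2.87 RPKM in HMLE against 1.40, 1.31 and 1.75 in DMSO at day 4 (-0.86, SE 0.131, limma adjusted p 3.36e-05), and the other differences were -0.52, -0.57 and -0.50. HOXB6 was higher by 1.01, 0.72, 0.84 and 0.98 and HOXB4 by 0.96, 1.75, 1.52 and 1.36. In DMSO at day 2 the HOXB4 call was lost without any 1 of the 6 libraries (adjusted p 0.0778 to 0.134), and the HOXB6 call without the third HMLE library (0.76, adjusted p 0.0788). HOXB3 in scramble cells at day 4 lost its call under total-read scaling (adjusted p 0.289). HOXB2 passed in those cells alone (0.28), a call lost without any 1 of 4 libraries (0.0563 to 0.239), and HOXB5 in none.

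HOXD was nearly silent in HMLE. HOXD1 had 0 reads in all 18 HMLE libraries, and 617 in the HMLE-TWIST1 libraries. With DMSO at day 2 the HMLE-TWIST1 libraries had 0.644, 1.30 and 1.10 RPKM (13, 36 and 29 reads), at least 27.9-fold above the floor of HMLE, and in the other comparisons the RPKM was at least 16.9, 19.8 and 12.3-fold higher. The fitted log2 difference in DMSO at day 2 was 3.63 (SE 0.287, limma adjusted p 9.19e-09). Of the exonic bases of HOXD1, 58.1 percent are shared on the opposite strand with HAGLR, which the files list as HOXD-AS1, and a second annotated gene together. HOXD-AS1 was higher in HMLE-TWIST1 by 7.02, 7.07, 7.52 and 6.91, from 0.0153 to 6.68 RPKM with DMSO at day 2. Reads of HOXD1 and these genes cannot be told apart if strand was not used in counting. HOXD3 rose by 1.65, 1.30 and 1.03 and did not pass in scramble cells at day 4 (0.50), and it shares 62.2 percent of its exonic bases on the same strand with neighbouring genes.

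By cluster, the median differences in DMSO at day 2 were 0.19 over 8 HOXA members, 0.72 over 8 HOXB members, 1.20 over 7 HOXC members and 2.64 over 2 HOXD members. The calls were 2 higher and 3 lower in HOXA, 4 and 1 in HOXB, 5 and 1 in HOXC and 2 and 0 in HOXD. In scramble cells at day 4 the medians were 0.79, 0.72, 0.77 and 1.77. By position in the cluster, paralogue groups 1 to 3 had medians of -0.52, -0.10, 0.22 and 0.28, groups 4 to 8 had 0.83, 0.89, 0.76 and 0.85, and groups 9 to 13 had 1.87, 2.53, 2.02 and 2.15. The members nearly unread in HMLE, which could not be called lower, raise these medians. They are HOXA10, where tested, HOXA13 and HOXB13 in groups 9 to 13, HOXA7 in groups 4 to 8, and HOXD1 in groups 1 to 3 and in the HOXD median. Among groups 4 to 8 none of the 12 tested members was lower in any line comparison, while groups 9 to 13 held HOXC13 and HOXC11 as their lower members. The differences between clusters and between positions were not tested. Summed levels did not keep 1 direction between the lines. The summed RPKM of HOXC was 22.5 ± 3.61 in HMLE and 39.5 ± 0.215 in HMLE-TWIST1 with DMSO at day 2 (SD, n = 3), and 29.7 ± 3.45 and 33.3 ± 1.97 at day 4. In scramble cells it was 29.1 ± 1.53 and 30.6 ± 0.881 at day 2 and 32.7 ± 0.997 and 27.7 ± 2.01 at day 4, where HMLE was the higher line and HOXC13 stood at 22.0 to 22.6 RPKM in HMLE. The summed RPKM of HOXA was 23.4 ± 3.91 in HMLE and 17.9 ± 0.683 in HMLE-TWIST1 with DMSO at day 2, and 19.0 ± 1.92 and 20.7 ± 1.04 at day 4. In scramble cells it was 13.8 ± 0.065 and 17.4 ± 0.955 at day 2 and 11.3 ± 0.374 and 17.9 ± 0.465 at day 4. These sums were not tested.

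Genes that act with HOX or lie beside them were read against the same share of all genes, which was 47.4% in DMSO at day 2 (24.1% higher and 23.2% lower), 66.9, 69.0 and 74.4% in the other comparisons. The difference of the lists from all genes was not tested. Of 9 cofactor genes, 4, 5, 5 and 4 were higher and 1, 3, 3 and 4 lower in the 4 comparisons. In scramble cells at day 2 the cofactor PKNOX2 differed by 5.62, PBX4 by 3.62, MEIS3 by 3.04 and MEIS1 by -1.34. Of 13 noncoding RNAs of the clusters, 5 of 9 tested rose and 2 fell in DMSO at day 2, among them HOXA11-AS at 2.02 and HOTAIR, the Polycomb-linked RNA of HOXC, at 1.04 (higher) and HOXA-AS2 at -1.46 (lower). Of 8 genes next to the clusters, 4 rose and none fell there, with KIAA1715 at 1.00 and MTX2 at 0.77 beside HOXD. Of 10 tested retinoid and caudal regulators, 1 rose and 7 fell in that comparison, with the retinoic acid synthesis gene ALDH1A3 at -7.40 and the carrier CRABP2 at -5.32. Of 29 chromatin regulators of HOX genes, 8 rose and 8 fell, with the Polycomb genes BMI1 at 1.74 and JARID2 at -1.56. The summed level of 7 epithelial markers was 1640 to 1950 RPKM in HMLE and 30.3 to 36.1 in HMLE-TWIST1, that of 6 mesenchymal markers 99.1 to 171 and 2280 to 2740, and that of the adipocyte markers FABP4 and PLIN1 was 6.01 to 18.9 in HMLE with DMSO at day 2, 42.3 to 112 with DMSO at day 4, 185 to 213 and 271 to 320 with scramble at day 2 and day 4, and at most 0.469 in the same 4 groups of HMLE-TWIST1. The adipocyte sum follows FABP4, which differed by -6.35, -9.21, -10.31 and -10.82, while PLIN1 passed in no line comparison. The part of the listed genes and markers in the HOX differences was not tested.

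Under chaetocin the HOX genes that passed were nearly all lower. Compared with DMSO in HMLE-TWIST1 at day 2, 0 of 25 tested members rose and 4 fell at 100 nM (median log2 -0.47; 23.7% of all genes passed, 11.9% higher and 11.8% lower). With 150 nM 0 rose and 8 fell (-0.53; 34.3%, 17.8% and 16.5%). The 200 nM libraries had 1 rise and 12 falls (-0.67; 40.0%, 20.9% and 19.1%), and those of 500 nM 0 rises and 13 falls (-0.80; 50.7%, 26.0% and 24.7%). Groups did not overlap with DMSO for 12, 13, 14 and 18 of the 25 members in the order of the doses, and for 40.6, 49.2, 51.8 and 60.4% of all genes. All genes together passed about as often upward as downward at each dose. The 4 doses share the same 3 DMSO libraries, which also enter the line comparison of day 2, so their values are set side by side and do not support each other. The 100 to 500 nM libraries were normalized by the authors apart from the DMSO libraries, and dose and table part cannot be told apart in these comparisons. Scaling by total reads gave 2 higher and 3 lower for 100 nM, 1 and 7 for 150 nM, and 2 and 10 for 500 nM, where median-of-ratios scaling gave 2 and 12. Total-read scaling also moved the median of all genes by 0.15 to 0.22. The count at 100 nM was 2 without the second 100 nM or second DMSO library and 7 without the third 100 nM library. At 150 nM it was 5 without the first 150 nM library and 4 without the third DMSO library. The 200 nM count was 5 or 8 without its first or second library and 8, 7 and 7 without the DMSO libraries in turn, and the 500 nM count was 8 without its second library.

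HOXA5 had the clearest order over doses. Its RPKM was 7.18, 7.92 and 6.92 in DMSO. The 100 nM libraries had 5.98, 4.52 and 5.69, those of 150 nM 3.85, 3.57 and 3.98, those of 200 nM 4.17, 3.08 and 3.62, and those of 500 nM 2.89, 2.71 and 2.52. All treated libraries were below all DMSO libraries, the 150 and 200 nM groups overlapped, and the 500 nM libraries were lowest. The log2 differences were -0.47 at 100 nM, which did not pass, and -0.95, -1.04 and -1.44 (SE 0.175, limma adjusted p 5.96e-06 at 500 nM). HOXA2 fell at all 4 doses. Its RPKM went from 4.67, 4.12 and 4.19 in DMSO to 3.08, 1.82 and 2.87 with 100 nM, or 1.95, 1.62 and 1.57 with 500 nM, without overlap between DMSO and either dose. The differences were -0.78, -0.96, -0.98 and -1.33 (SE 0.218, adjusted p 9.7e-05 at 500 nM), and the call at 100 nM was lost without the second 100 nM (-0.55, adjusted p 0.0911) or the first DMSO library (-0.72, adjusted p 0.0607). HOXA3 fell at 200 and 500 nM, to 1.02, 0.983 and 1.02 RPKM at 500 nM from 2.26, 2.29 and 1.85 (-1.08), and HOXA6 fell at those 2 doses by 1.10 and 1.39. The HOXA6 call at 200 nM was lost without any 1 of 4 libraries (adjusted p 0.078 to 0.148) and at 500 nM without the second library (0.0503).

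**Figure D4:**
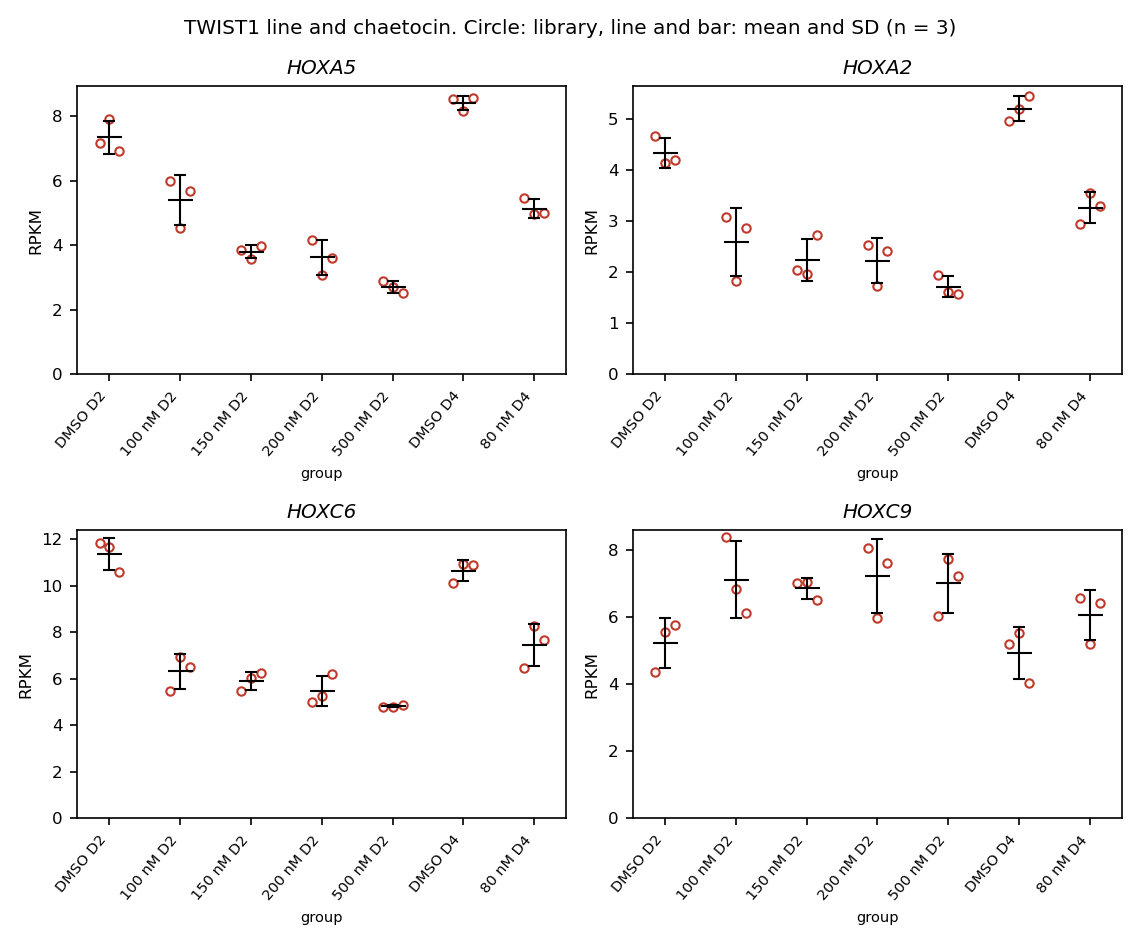
RPKM of HOXA5, HOXA2, HOXC6 and HOXC9 in each HMLE-TWIST1 library (circles) with DMSO, 100 to 500 nM chaetocin at day 2, and DMSO or 80 nM chaetocin with washout at day 4, with the mean and SD of 3. HOXA5, HOXA2 and HOXC6 lie lower in the chaetocin groups than in DMSO, and HOXC9 lies level or higher.

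In HOXC, HOXC6 fell at all 4 doses. Its RPKM was 11.8, 11.6 and 10.6 in DMSO, 5.48, 6.95 and 6.51 with 100 nM, then 4.80, 4.78 and 4.89 with 500 nM, so that no treated library reached a DMSO library. The differences were -0.87, -0.96, -1.08 and -1.26 (SE 0.125, limma adjusted p 9.16e-07 at 500 nM). At 500 nM HOXC6 in HMLE-TWIST1 lay within the range of HMLE with DMSO, 4.20 to 5.39 RPKM. The 2 groups come from different parts of the deposited values and were scaled together here. HOXC9, the next gene but one, moved the other way, from 4.37, 5.56 and 5.75 RPKM in DMSO to 8.07, 5.97 and 7.61 at 200 nM, its only call (0.43, SE 0.164, adjusted p 0.0475). That call was lost without the first (adjusted p 0.158) or the third (0.121) 200 nM library or the first (0.201) or second (0.0623) DMSO library, and the values at the other doses were 0.41, 0.37 and 0.38. HOXC10 passed at no dose, with a mean of 1.36 ± 0.0559 RPKM in DMSO and 1.76 ± 0.785 at 500 nM (SD, n = 3). HOXC8 fell at 200 and 500 nM, by 0.52 and 0.80, to 8.76, 9.40 and 8.90 RPKM at the higher dose from 16.0, 14.6 and 15.5. The 200 nM call was lost without any 1 of 4 libraries (adjusted p 0.0657 to 0.16).

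HOXC4 fell at 150, 200 and 500 nM, by 2.03, 1.20 and 1.53, and HOXC5 at 100, 150 and 500 nM, by 1.08, 1.44 and 1.10. HOXC5 had 21, 37 and 23 reads in DMSO and 14, 7 and 10 at 100 nM, and that call was lost without the second or the third 100 nM library or the first or second DMSO library (adjusted p 0.0717 to 0.134). At 500 nM HOXC5 lost its call without the second library of either group (0.0679 and 0.0642), and HOXC4 lost its 200 nM call without the first library of that dose (0.0827). HOXC13 fell at 150, 200 and 500 nM, by 0.58, 0.81 and 0.62, to 3.49, 2.22 and 2.67 RPKM at 500 nM. Its 150 nM call was lost without any 1 of 4 libraries (0.0551 to 0.0797) and its 500 nM call without the second library of that dose (0.0689), and both under total-read scaling. HOXC13 was among the members that were higher in HMLE, as was HOXA3 in 3 of the 4 line comparisons.

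In HOXB, HOXB9 fell at 150, 200 and 500 nM, by 1.20, 0.91 and 1.04, with 3.19, 4.62 and 5.54 RPKM in DMSO and 1.72, 1.93 and 2.93 at 500 nM. At 150 nM it had 1.40, 1.99 and 2.40 RPKM (SE 0.337, limma adjusted p 0.0115), and the call was lost without the first 150 nM (adjusted p 0.0598) or the third DMSO library (0.0537). It was also lost at 200 nM without any 1 of 4 libraries (0.0516 to 0.194) and at 500 nM without any 1 of 3 (0.0577 to 0.0746). HOXB6 fell at 200 and 500 nM by 0.84 and 0.97, HOXB2 by 0.68 and 0.64, and HOXB5 at 500 nM by 0.81. Under total-read scaling, or without any 1 of 4 or 5 libraries (0.0562 to 0.215), the HOXB2 and HOXB5 calls and the 200 nM call of HOXB6 were lost, and its 500 nM call was lost without the first library of that dose (0.0648). HOXB7 did not pass at any dose and had 11.49, 10.6 and 11.1 RPKM at 500 nM. In HOXD, HOXD1 fell at 100 nM, from 13, 36 and 29 reads to 5, 10 and 13 (0.280, 0.443 and 0.527 RPKM; log2 -1.13, SE 0.287, adjusted p 0.00933), and did not pass at the higher doses. The call was lost without the first 100 nM library (-0.91, adjusted p 0.0543) or the second DMSO library (-0.92, adjusted p 0.0579). HOXD3 fell at 150 nM alone, by 1.01, from 13, 23 and 24 reads to 7, 6 and 11, and lost its call without any 1 of 4 libraries (adjusted p 0.064 to 0.0924).

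The clusters differed in how far their summed levels went down, as a description. HOXA summed to 18.4, 18.2 and 17.1 RPKM in DMSO and 8.85, 7.31 and 7.42 at 500 nM. HOXB, over its 8 members listed in all parts, went from a mean of 21.5 to 18.6 RPKM, and HOXC from 39.5 to 26.3. In single libraries the ratio of HOXA to HOXB was 0.722 to 1.00 in DMSO and 0.375 to 0.497 at 500 nM. Of the 13 members that fell at 500 nM, 4 were in HOXA, 4 in HOXB, 5 in HOXC and 0 in HOXD, with medians of -0.97, -0.73, -0.80 and -0.63.

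Between 500 and 100 nM, a comparison inside 1 table part, 3 members fell and 0 rose (median -0.26; 16.9% of all genes, 9.05% higher and 7.89% lower), and 6 of 25 members and 29.7% of all genes had no overlap. HOXA5 fell by 0.97 (SE 0.175, limma adjusted p 0.00305), and its 3 libraries at 500 nM were all below the 3 at 100 nM. HOXA3 fell by 0.79 (SE 0.209, adjusted p 0.0174), from 1.77, 1.65 and 1.87 RPKM to 1.02, 0.983 and 1.02, and HOXC6 by 0.39 (SE 0.125, adjusted p 0.0396). The HOXA3 call was lost without the second 500 nM (adjusted p 0.0711) or the third 100 nM library (0.0727), and the HOXC6 call without any of 5 libraries (0.0719 to 0.133).

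After the washout at day 4, which lies inside 1 table part, 7 of 26 tested members were lower than in DMSO and 1 higher (median -0.34; 36.6% of all genes passed, 19.4% higher and 17.2% lower). No overlap was seen for 11 of 26 members and 49.7% of all genes. The count was 5 without the first or the third 80 nM library or the third DMSO library. HOXA5 fell by 0.68 (SE 0.117, limma adjusted p 0.000432), from 8.52, 8.15 and 8.54 RPKM to 5.46, 4.96 and 4.98, and HOXA2 by 0.65 (SE 0.155, adjusted p 0.00473), from 4.95, 5.20 and 5.44 to 2.94, 3.55 and 3.29. HOXC4 fell by 1.77 (SE 0.319, adjusted p 0.000635), with 21, 23 and 18 reads in DMSO and 5, 6 and 6 after the drug. None of these 3 overlapped. HOXA3 fell by 0.63, HOXB9 by 0.53, HOXC5 by 0.97 and HOXC6 by 0.50, and these 7 were among the 13 that fell at 500 nM against other DMSO libraries. The share of all genes that fell in both was not counted, so whether the overlap is particular to HOX genes was not tested. The HOXB9 and HOXC5 calls were lost under total-read scaling and without any 1 of 4 (adjusted p 0.0829 to 0.142) and 5 (0.0666 to 0.2) libraries. HOXB7 rose by 0.44, with 8.72, 10.3 and 7.76 RPKM in DMSO and 13.4, 9.89 and 12.8 after the drug, groups that overlap. That call was lost without the first (adjusted p 0.106) or the third (0.104) 80 nM library or the first (0.0697) or the third (0.125) DMSO library. HOXC8 had a difference of 0.11 and did not pass. The ratio of summed HOXA to HOXB was 0.995 to 1.04 in DMSO and 0.570 to 0.640 after the washout.

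Other genes of the HOX system moved in both directions. At 500 nM 26.0% of all genes rose and 24.7% fell, and after the washout 19.4% rose and 17.2% fell. The difference of the gene lists from all genes was not tested. Of 9 cofactor genes 0 rose and 6 fell at 500 nM, with PKNOX2 at -1.64, MEIS3 at -1.50 and PBX2 at -1.09, and 5 fell after the washout. Of the noncoding RNAs, HOTAIRM1, a noncoding RNA of HOXA, fell at all 4 doses by 1.23, 1.57, 1.56 and 1.73, HOXD-AS1 fell by 0.54, 0.85, 1.06 and 1.48, and HOXA-AS3 rose by 1.46, 1.55 and 1.64 at 150 to 500 nM. Of the 8 cluster neighbours, which are not HOX genes, 6 fell and 1 rose at 500 nM, and 6 fell after the washout. Of the 29 chromatin regulators 11 fell and 4 rose at 500 nM, so more of the calls were lower. The H3K27 demethylase KDM6B at 1.88 and the methyltransferase EZH2 at 0.65 belong to the 4 that rose, and those that fell are not named here. Of 10 retinoid and caudal regulators 6 rose and 2 fell, with ALDH1A2 at 2.56. TWIST1 was lower at 150, 200 and 500 nM, by 0.73, 0.88 and 1.26, and the 6 mesenchymal markers summed to 2280 to 2740 RPKM in DMSO, 967 to 1570 with 100 nM, then 738 to 949 with 500 nM. At 500 nM COL1A1 (-2.82), COL5A1 (-2.85), FN1 (-2.50) and ZEB1 (-1.27) fell, while VIM (-0.205) and CDH2 (0.021) did not pass. The 7 epithelial markers summed to 30.3 to 36.1 RPKM in DMSO and 34.4 to 60.5 at 500 nM, against 1640 to 1950 in HMLE. Among them CDH1 (3.24), EPCAM (2.68), TP63 (3.61) and KRT18 (1.54) rose, KRT5 (-2.36) and KRT14 (-1.49) fell, and KRT8 (-0.157) did not pass. Leukocyte markers summed to 0.969 to 1.25 RPKM in DMSO and 1.64 to 3.73 at 500 nM, and endothelial markers to 0.168 to 0.496 and 0.439 to 0.819. The part of these shifts in the HOX values was not tested. After the washout TWIST1 did not pass (0.35).

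Knockdown of SUV39H1 and SUV39H2 changed few HOX genes. At day 2, 2 of 25 tested members rose and 1 fell in HMLE (median 0.08; 28.7% of all genes passed, 14.1% higher and 14.7% lower), and 0 rose and 1 fell in HMLE-TWIST1 (median 0.02; 15.8%, 7.54% and 8.26%). At day 4, 2 of 27 rose and 0 fell in HMLE (median 0.20; 26.1%, 11.7% and 14.4%), and 4 rose and 1 fell in HMLE-TWIST1 (median 0.14; 38.0%, 19.0% and 19.0%). The difference from the share of all genes was not tested. Knockdown and scramble did not overlap for 6 and 5 of 25 members at day 2 and 6 and 9 of 27 at day 4, in HMLE and HMLE-TWIST1, and for 41.5, 33.4, 36.3 and 53.4% of all genes. In HMLE at day 4 the count was 4 without the first knockdown library, 1 without the second and 0 without the third scramble library, and in HMLE-TWIST1 at day 2 it was 3 without the first knockdown library.

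HOXB9 had the largest change. In HMLE-TWIST1 at day 4 its RPKM was 5.70, 5.91 and 5.56 with scramble (209, 211 and 202 reads) and 1.58, 1.77 and 1.44 with knockdown (54, 70 and 52 reads), a fall of 1.82 on the log2 scale (SE 0.228, limma adjusted p 5.61e-06). In HMLE it was 0.878, 1.71 and 1.33 RPKM with scramble and 1.14, 0.832 and 0.601 with knockdown, which overlap (-0.58, not passed). The knockdown effect differed between the lines by -1.24 (SE 0.323, adjusted p 0.0101, between 0.00793 and 0.0255 over the alternatives that keep all libraries), the only HOX gene of 27 to do so, where 22.9% of all genes passed, 12.2% higher and 10.7% lower. That count was 2 without the third HMLE knockdown library or without the second or the third HMLE scramble library. At day 2 HMLE-TWIST1 had 3.58, 2.93 and 3.18 RPKM of HOXB9 with scramble and 2.94, 1.86 and 2.14 with knockdown, and did not pass. The neighbour HOXB8 had too few reads to be tested, with 13, 8 and 12 reads in HMLE-TWIST1 scramble at day 4 and 5, 1 and 2 in the knockdown. At day 2 none of 25 members differed in effect between the lines by limma (12.2% of all genes passed), 2 having an unadjusted p under 0.05, and none passed with precision weights.

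**Figure D5:**
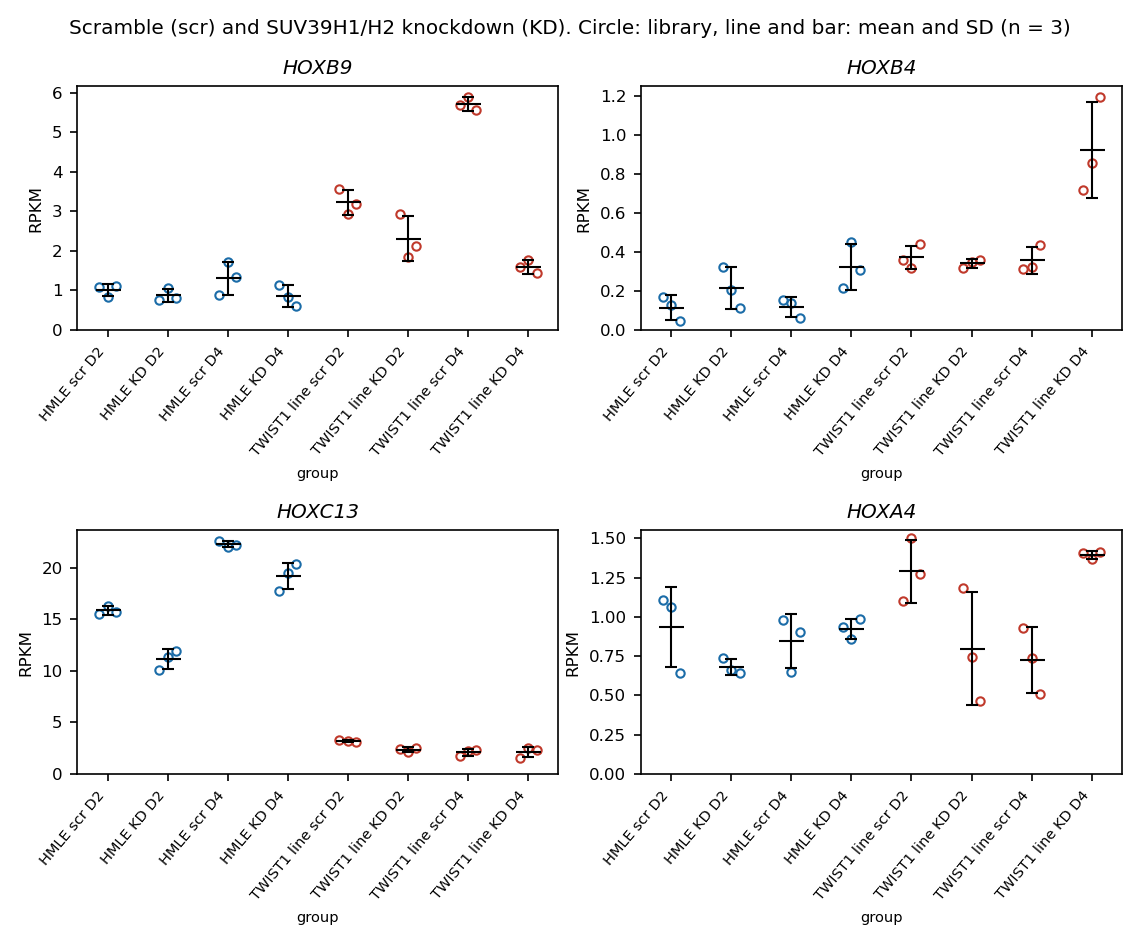
RPKM of HOXB9, HOXB4, HOXC13 and HOXA4 in each scramble and knockdown library (circles) of both lines at day 2 and day 4, with the mean and SD of 3. HOXB9 is high in HMLE-TWIST1 scramble libraries at day 4 and low in the knockdown, while HOXB4 is highest in the HMLE-TWIST1 knockdown at day 4.

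HOXB4, a gene of blood stem cell growth, rose in both lines at day 4. HMLE had 0.152, 0.140 and 0.0600 RPKM with scramble (6, 6 and 2 reads) and 0.217, 0.450 and 0.306 with knockdown (9, 18 and 12 reads), a rise of 1.18 (SE 0.314, limma adjusted p 0.00946). That call was lost without the second knockdown (0.95, adjusted p 0.0571) or the third scramble library (0.90, adjusted p 0.0521). HMLE-TWIST1 had 0.314, 0.323 and 0.436 RPKM with scramble and 0.717, 0.854 and 1.19 with knockdown, a rise of 1.23 (SE 0.314, adjusted p 0.0047). The groups did not overlap in either line. HOXA4 rose in HMLE-TWIST1 by 0.88 (SE 0.245, adjusted p 0.00861), from 0.929, 0.737 and 0.511 RPKM to 1.41, 1.37 and 1.41, and HOXB3 by 0.44, from 1.51, 1.32 and 1.41 to 2.06, 1.71 and 2.07. HOXD3 rose there by 1.01 (SE 0.366, adjusted p 0.0377), from 11, 17 and 12 reads to 31, 27 and 30, but lost its call without the first or the third library of either group (adjusted p 0.0786 to 0.103). HOXA4, HOXB4 and HOXD3 share 31.0, 17.1 and 62.2 percent of their exonic bases with other genes on the same strand. HOXB6 rose in HMLE by 0.56 (SE 0.168, adjusted p 0.0197), from 0.769, 1.07 and 0.801 RPKM to 1.31, 1.13 and 1.55, and the call was lost without the third knockdown library (0.0846) or the first (0.0756) or the third (0.0664) scramble library.

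At day 2 HOXC13 fell in both lines. HMLE went from 15.6, 16.3 and 15.7 RPKM to 10.1, 11.3 and 11.98 (-0.48, SE 0.098, limma adjusted p 0.00131), and HMLE-TWIST1 from 3.34, 3.23 and 3.14 to 2.46, 2.10 and 2.56 (-0.45, SE 0.098, adjusted p 0.00404), without overlap. HOXC13-AS fell with it, by 0.39 and 0.53. HOXA2 and HOXA5 rose in HMLE, HOXA2 from 3.11, 3.17 and 3.46 RPKM to 4.55, 4.50 and 4.39 (0.49, SE 0.118, adjusted p 0.00475) and HOXA5 from 3.61, 4.21 and 4.04 to 6.10, 4.58 and 5.11 (0.43, SE 0.121, adjusted p 0.0128). The HOXA5 call was lost without the first knockdown library (0.29, adjusted p 0.123). None of the 3 passed at day 4 in either line.

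Beside these, TWIST1 was lower after knockdown in HMLE-TWIST1 by 0.49 at day 2 and 0.48 at day 4, and in HMLE by 0.57 at day 2. The 6 mesenchymal markers summed to 1570 to 1700 RPKM in HMLE-TWIST1 with scramble at day 4 and 955 to 960 with knockdown, leukocyte markers to 3.53 to 4.93 and 2.08 to 2.51, and FABP4 with PLIN1 in HMLE at day 2 to 185 to 213 with scramble and 85.4 to 96.3 with knockdown. Of the mesenchymal markers at day 4, FN1 (-1.20) and VIM (-0.89) fell, COL1A1 (0.33) rose, and CDH2, COL5A1 and ZEB1 did not pass. FABP4 fell in HMLE at day 2 (-1.12) and PLIN1 did not pass. The part of TWIST1 and these markers in the HOX values was not tested. Of the cofactors 3 rose and 1 fell in HMLE-TWIST1 at day 4, with PBX2 and MEIS2 at 0.63 and 0.64. Of 32 other homeobox genes, 8 of 28 tested rose and 1 fell there, among them SIX2 at 1.14, where 19.0% of all genes rose and 19.0% fell. CBX5, which lies beside HOXC and encodes the heterochromatin protein HP1 alpha, fell by 1.13.

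Scramble cells also differed between day 4 and day 2. In HMLE 3 of 27 members rose and 7 fell (median -0.23; 42.3% of all genes passed, 21.7% higher and 20.6% lower), and in HMLE-TWIST1 2 rose and 4 fell (median 0.00; 29.1%, 13.6% and 15.5%). The days did not overlap for 10 and 11 of 27 members and for 48.4 and 45.9% of all genes. Scaling by total reads gave 2 higher and 11 lower in HMLE and 3 and 3 in HMLE-TWIST1, and the HMLE-TWIST1 count was 3 without the second day 4 library or without the second or the third day 2 library. These comparisons share libraries with those of the lines and of the knockdown at each day.

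HOXC13 changed in opposite directions. In HMLE it rose from 15.6, 16.3 and 15.7 RPKM to 22.6, 22.0 and 22.2 (0.49, SE 0.128, limma adjusted p 0.00301), and in HMLE-TWIST1 it fell from 3.34, 3.23 and 3.14 to 1.73, 2.27 and 2.32 (-0.62, SE 0.128, adjusted p 0.000448), and the effect differed by -1.11 (SE 0.182, adjusted p 2.11e-05). The test of this difference between the lines was added after the values had been seen, and 3 members passed upward and 1 downward (34.4% of all genes, 16.6% and 17.8%). HOXB7, HOXC8 and HOXA2 fell in HMLE, by 0.44, 0.47 and 0.49, while the values in HMLE-TWIST1 were 0.28, 0.17 and 0.12 and did not pass. Their differences between the lines were 0.73 (SE 0.171, adjusted p 0.00137), 0.64 (SE 0.16, adjusted p 0.00243) and 0.61 (SE 0.18, adjusted p 0.009). HOXB7 went from 8.95, 9.35 and 9.41 RPKM to 7.07, 6.62 and 6.67 in HMLE, and from 8.51, 7.93 and 6.45 to 9.90, 8.72 and 9.30 in HMLE-TWIST1.

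HOXB9 rose in HMLE-TWIST1 by 0.81 (SE 0.221, limma adjusted p 0.006), from 3.58, 2.93 and 3.18 RPKM to 5.70, 5.91 and 5.56, in the scramble libraries that also serve as the reference of the knockdown. HOXA4 fell there by 0.79 (SE 0.27, adjusted p 0.0286), from 1.10, 1.50 and 1.27 RPKM to 0.929, 0.737 and 0.511, and lost its call without the second or the third library of either day (adjusted p 0.0567 to 0.161). HOXB2, a hindbrain gene, rose in both lines, by 0.40 in HMLE (1.67, 2.52 and 2.24 RPKM to 2.61, 3.06 and 2.77) and 0.47 in HMLE-TWIST1 (2.17, 2.60 and 2.59 to 3.28, 3.90 and 3.12). The HMLE call was lost without the second day 4 (adjusted p 0.074) or the first day 2 library (0.145), and the HMLE-TWIST1 call without the same 2 numbers (0.0585 and 0.0513). HOXC6 fell in HMLE-TWIST1 by 0.30 (adjusted p 0.039), a call lost without any of 5 libraries (0.0557 to 0.193). HOXC5 fell in both lines, by 0.98 and 1.09, and HOXA5, HOXA13 and HOXC9 fell in HMLE, by 0.37, 0.90 and 0.47, where HOXC11 rose by 1.08. Of these, the HOXC11 call was lost without the first day 4 library (adjusted p 0.0923). The HOXA5, HOXC5 and HOXC9 calls were lost without any 1 of 3 or 4 libraries (0.0683 to 0.284). HOXA13 kept its call whichever library was left out, but it rests on very few reads. It had 18 reads over all HMLE libraries and 0 in scramble HMLE at day 4, and could be tested only through its reads in HMLE-TWIST1.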

How the data were processed

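Stranded libraries were made from total RNA after removal of ribosomal RNA, per the labels' protocols. The submitters' processing notes name STAR, HTSeq and hg19 (GRCh37). Versions and the strand option are not given in the sources used here. The authors deposited log2 RPKM in 3 separately normalized parts, and whole reads were recovered from it for 100.0% of values (tolerance 0.001). A whole-number table with 81 unnamed columns was not used. The design had assumed counts. Since the named table is in log2 units, limma 3.58.1 (R 4.3.3, statmod 1.5.0) was run on log2 CPM with an intensity trend, robust moderation and a prior count of 2, after trimmed-mean scaling (30% of log ratios, 5% of levels). Genes needed 10 reads in 3 libraries and 15 in all. Fits covered 18801, 17585, 17888, 17985 or 18739 genes, each scaled over its own libraries. RPKM was recomputed from the reads with a joint trimmed-mean scaling of all 51 libraries. The script was tested on simulated data.

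The 19 comparisons had 3 libraries a group. Members and lists were chosen with earlier results of these data known. Values per library are given for the 3 highest members of each cluster, and up to 3 rises and 3 falls per comparison were named by size among calls without overlap whose average log2 CPM was 0 or more. Same-numbered libraries deviated together most clearly between 500 and 100 nM (correlations 0.46, 0.25 and 0.18 in the 3 pairs), so the numbers were taken to pair the libraries there. Of these, 2 correlated best with their own number. The main values of that comparison come from the fit without a replicate block. Exonic overlap was read from GENCODE release 29 and promoters from RefSeq. Alternatives were other scalings, no filter, a prior count of 0.5, precision weights, the deposited log2 values, only the groups compared, a replicate block and leaving out each library. Values of some genes are not reported here, but all members enter the counts and medians.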

Additional observations from a re-analysis of the deposited data

Results flagged for a closer look

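HOXB9 is listed because the knockdown effect at day 4 differed between the lines, by -1.24 on the log2 scale (limma adjusted p 0.0101), with the 3 knockdown libraries of HMLE-TWIST1 below its 3 scramble libraries and the HMLE groups overlapping. For 4 genes the change of scramble cells from day 2 to day 4 differed between HMLE-TWIST1 and HMLE. These were HOXB7 (0.73, adjusted p 0.00137), HOXC8 (0.64, adjusted p 0.00243), HOXA2 (0.61, adjusted p 0.009) and HOXC13 (-1.11, adjusted p 2.11e-05), by a test added after the values were seen.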

How the results depend on the processing

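Of 159 calls of single members, 108 were kept under every alternative and none changed direction. Of 145 counts under settings that keep all libraries, 8 lay outside 1.5 times the reported count. Total-read scaling gave 7 calls at 200 nM in place of 13. The deposited log2 RPKM gave 1 call between 500 and 100 nM in place of 3. Fitting only the groups compared gave 2 calls at 100 nM (4 reported), 1 between 500 and 100 nM, 2 for knockdown in HMLE-TWIST1 at day 2 (1 reported), 1 for knockdown in HMLE at day 4 (2 reported) and 4 between days in HMLE (10 reported). Precision weights gave 3 for knockdown in HMLE-TWIST1 at day 2. The cause was not tested. Leaving out 1 library at a time gave 15 to 18 calls between the lines in DMSO at day 2, 18 to 20 at day 4, and 16 to 19 and 19 to 20 in scramble cells. It gave 2 to 7, 4 to 12, 5 to 12 and 8 to 12 at 100, 150, 200 and 500 nM, 1 to 4 between 500 and 100 nM and 5 to 8 after the washout. Knockdown had 2 to 4 and 1 to 3 calls at day 2 in HMLE and HMLE-TWIST1, and 0 to 4 and 4 to 5 at day 4. The line difference of the knockdown had 0 calls at day 2 and 1 to 2 at day 4. Days of scramble cells had 7 to 11 and 3 to 5, and their line difference 4 to 6.

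With the replicate number as a block the counts were 18, 21, 18 and 21 between the lines, 6, 10, 13 and 15 for the doses, 3 between 500 and 100 nM, 9 after the washout, 3, 1, 3 and 5 for knockdown, 0 and 1 for its line difference, and 11, 6 and 4 for the days. Between 500 and 100 nM, where the numbers were taken to pair the libraries, the block left HOXA5 called and gave limma adjusted p 0.00917 for HOXA3 and 0.0312 for HOXC6, and it changed no other call there. Elsewhere the numbers were not taken to pair the libraries. In the washout and in both DMSO line comparisons all 3 libraries correlated best with their own number, though weakly (0.02 to 0.23), so pairing there is not excluded. Depth limits the low members, since HOXC11, HOXB8, HOXD3, HOXD8 and HOXA10 had few reads in each library and a difference among them may not have been detectable.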
